A study of Mus musculus with 18 samples.

Results

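The data described here are the livers of 6 mice, 3 given the cytokine interleukin-1β (IL-1β) and 3 given saline, profiled with the TruSeq Stranded mRNA kit, which are 6 of the 18 samples of the series. They were chosen as the gene count table of the TruSeq libraries, with all of its 19424 genes. The mice were male C57/B6J animals of 12 weeks; the treated mice received 20 µg per kg of IL-1β by intraperitoneal injection, the controls received saline, and livers were perfused with buffered saline and taken 4 hours later. Each library is 1 mouse, and counts are given in a fixed order of the mice, IL-1β livers first. The p-values therefore measure a difference against the spread between mice, at 1 dose and 1 time. Whole liver was used, so hepatocytes dominate and every other liver cell type is present in the same sample.

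IL-1β is a cytokine that macrophages release after infection or injury. Its receptor, Il1r1 with the partner chain Il1rap, acts through the adaptor Myd88 and the Irak kinases to release the transcription factor NF-kB and to start the p38 and JNK kinases that raise AP-1. In the liver it is known, together with IL-6 and glucocorticoids, for starting the acute-phase response, in which hepatocytes secrete defence proteins such as serum amyloid A, and make less of some plasma carriers and metabolic enzymes.

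Each library held 12348864 to 12858237 counts and a count in 16512 to 16845 genes, the IL-1β livers having fewer detected genes (16512 to 16515) than the saline livers (16766 to 16845). Over genes that averaged 20 counts or more, log2 levels correlated at 0.986 to 0.991 between IL-1β livers, at 0.987 to 0.988 between saline livers and at 0.911 to 0.917 across the treatments; these are descriptions across genes, which are not independent replicates. The median coefficient of variation of the genes that passed the test was 11% in the IL-1β livers and 10.3% in the saline livers. No library stood apart from its group.

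Of the 19424 genes tested, 3241 were higher (16.7%) and 3127 were lower (16.1%) after IL-1β at an adjusted p of 0.05 or less (limma-voom with TMM scaling, Benjamini-Hochberg adjustment). At least 2-fold changes were called for 1289 genes that rose (6.64%) and 1497 that fell (7.71%); 471 rose and 420 fell at least 4-fold, and 81 rose and 14 fell at least 16-fold. TMM scaling assumes that most genes do not change, and the split depends on it. With library totals in its place, 2382 genes were higher and 4232 lower, the share of calls that were higher was 36.0% in place of 50.9%, and the median log2 fold change moved from -0.01 to -0.17, a shift of 0.16. With library totals 1002 genes were at least 2-fold higher and 1950 at least 2-fold lower. All 1497 genes called at least 2-fold lower kept that call, and 1002 of the 1289 called at least 2-fold higher did. Library totals move fold changes downward, so this difference follows from the shift and does not make the falls the firmer calls. Fold changes below are on the TMM scale, and where a list count moved by over 1.5 times with library totals, another tool or 1 mouse left out, that count is given beside it. List counts are to be set against the 16.7% and 16.1% of all genes that were higher and lower. Mice left out are named by their place in the order of the counts, and each such fit has fewer mice than the full one.

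The genes with the largest rises included A2m, Lcn2, the amyloid A genes, the metallothioneins, the IL-1 antagonist Il1rn and the cell-cycle inhibitor Cdkn1a. A2m, the protease inhibitor alpha-2-macroglobulin (mm9, chromosome 6, bases 121586191 to 121629255), had 2125, 1736 and 2564 counts in the IL-1β livers and 3, 3 and 0 in the saline livers. Lcn2, lipocalin 2, which binds bacterial iron carriers, had 44980, 48283 and 55197 counts against 54, 65 and 91. Saa3, an amyloid A protein also made by macrophages, had 44219, 40786 and 47194 against 67, 72 and 76. None of these ranges came near the other. The rise was 10.38 on the log2 scale (SE 0.71, adjusted p = 7.87e-06) for A2m, where the saline counts are at the floor, so that the count ratio is given as at least 735-fold against 3 counts per library. For Lcn2 it was 823-fold (log2 9.68, SE 0.19, adjusted p = 3.21e-09), and for Saa3 701-fold (log2 9.45, SE 0.14, adjusted p = 4.66e-10).

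The other 12 of the 15 largest rises ran from 70.7-fold to 347-fold. Saa2, an amyloid A protein carried on high-density lipoprotein, had 89347, 90909 and 99732 counts after IL-1β and 324, 216 and 417 after saline (log2 8.44, SE 0.18), and its neighbour Saa1 had 81939, 86161 and 95127 against 1221, 566 and 1229 (log2 6.73, SE 0.24). Reads of Saa1 and Saa2, which are near-identical copies, can be split or lost where reads must map uniquely, so the value of each is uncertain. The metallothioneins Mt2 and Mt1, which bind zinc and copper, rose 144-fold and 70.7-fold. Mt2 was uneven among the saline livers, at 367, 62 and 406 counts, and had 24154, 26029 and 28989 in the IL-1β livers. Il1rn, the secreted antagonist that blocks the IL-1 receptor, rose 136-fold, with 2194, 1783 and 1080 counts against 14, 23 and 7. Cd14, the coreceptor for bacterial lipopolysaccharide, rose 133-fold, and Cdkn1a, the cyclin-dependent kinase inhibitor p21, rose 92.4-fold, from 11, 16 and 15 counts to 1260, 1281 and 946. The remaining 5 were Reg3b, an antimicrobial lectin; Syt12, of the synaptotagmin family; Serpina3i, a serpin; Ankrd2, an ankyrin repeat protein; and the predicted gene Gm10309.

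The genes with the largest falls included Cyp7a1, Nr1i3, Wee1 and Hsd3b2. Cyp7a1, the rate-limiting enzyme of bile acid synthesis (mm9, chromosome 4, bases 6192759 to 6202780), had 28, 73 and 78 counts in the IL-1β livers against 3122, 2764 and 3883 in the saline livers, a fall of 51.2-fold (log2 -5.68, SE 0.31, adjusted p = 2.13e-06). Nr1i3, the constitutive androstane receptor that switches on drug metabolism (mm9, chromosome 1, bases 173144101 to 173150832), had 239, 277 and 348 counts against 7320, 6181 and 5285, a fall of 19.0-fold (log2 -4.24, SE 0.17, adjusted p = 3.08e-07). Wee1, the kinase that holds back entry into mitosis, had 2, 4 and 6 counts against 103, 156 and 114, a fall of 25.6-fold. Arrdc3, an arrestin-like protein, fell 14.2-fold, Map2k6, a kinase that activates p38, fell 15.6-fold and Tlr12, a Toll-like receptor, fell 16.1-fold. Cldn1, a tight junction protein, fell 13.9-fold and Hsd3b2, a steroid dehydrogenase, 13.7-fold. The other 7 of the 15 were D0H4S114, 8430408G22Rik, Dclk3, Sox5, Fam13a, Tbc1d30 and Tiam2, with falls of 13.2-fold to 31.1-fold. Of the 15, Cyp7a1 and Nr1i3 had the highest saline counts.

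**Figure D1:**
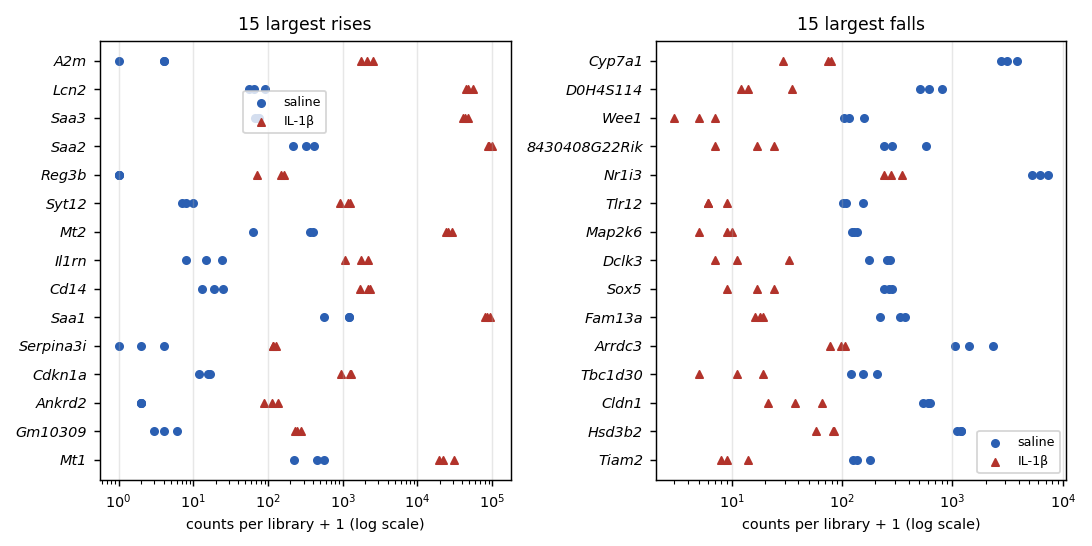
Counts per library plus 1 (log axis) of the 15 genes with the largest rise (left) and the 15 with the largest fall (right); each point is 1 mouse, triangles are IL-1β and circles saline. In every row the 3 IL-1β points lie apart from the 3 saline points, which the choice of genes required. Cyp7a1 and Nr1i3 reach the highest saline counts of the falling genes.

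What these genes hold before their starts can be read for those with a promoter sequence. RefSeq (build GRCm38.p6) gave a sequence of 300 bases, 250 before and 50 after the start, for 12786 of the 19424 genes tested, and the first start listed was used. Short motifs were searched on both strands: the NF-kB motif GGGANNTNCC, the STAT motif TTCNNNGAA, the C/EBP motif TTGCNNAA, the AP-1 motif TGANTCA, the HNF4 motif CAAAGTNCA and the TATA box TATAAA. Promoters of 3 amyloid A genes are shown first, because they belong to the largest rises and lie next to each other; the C/EBP motif is in capitals. All are written 5′ to 3′ along the gene and end at the base before its start.
Saa3: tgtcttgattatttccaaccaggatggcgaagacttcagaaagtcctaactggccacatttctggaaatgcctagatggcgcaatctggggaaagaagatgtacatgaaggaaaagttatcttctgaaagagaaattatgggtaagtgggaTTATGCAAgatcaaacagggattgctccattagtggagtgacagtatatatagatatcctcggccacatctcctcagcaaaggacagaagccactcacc
Saa1: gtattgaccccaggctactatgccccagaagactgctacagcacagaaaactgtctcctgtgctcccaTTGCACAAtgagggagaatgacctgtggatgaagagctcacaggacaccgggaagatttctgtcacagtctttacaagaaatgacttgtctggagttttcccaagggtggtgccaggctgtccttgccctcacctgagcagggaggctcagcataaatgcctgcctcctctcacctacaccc
Saa2: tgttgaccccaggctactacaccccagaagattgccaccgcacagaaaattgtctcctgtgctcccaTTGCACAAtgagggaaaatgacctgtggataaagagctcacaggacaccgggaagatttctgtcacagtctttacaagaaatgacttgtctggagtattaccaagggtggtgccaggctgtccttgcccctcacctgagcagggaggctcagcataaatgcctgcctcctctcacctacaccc
These are chr7:46715677-46715926 on the minus strand for Saa3, chr7:46742981-46743230 on the minus strand for Saa1 and chr7:46751583-46751832 on the plus strand for Saa2. The motif begins at base -99 of Saa3, -182 of Saa1 and -183 of Saa2, counted from the start. Saa1 and Saa2 share 238 of the 250 bases in matching blocks, and their genes, which face away from each other, rose 106-fold and 347-fold.

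Of the 15 largest rises, 11 had a promoter sequence and none of those held the NF-kB motif before the start; of the 15 largest falls, 10 had one and none held the HNF4 motif there. The 3 genes with the next largest rises that held an NF-kB motif, chosen after this was seen, were Tlr2, Bhlha15 and Plin4, and the gene with the next largest fall that held an HNF4 motif was Hsd3b5. The motif is in capitals.
Tlr2: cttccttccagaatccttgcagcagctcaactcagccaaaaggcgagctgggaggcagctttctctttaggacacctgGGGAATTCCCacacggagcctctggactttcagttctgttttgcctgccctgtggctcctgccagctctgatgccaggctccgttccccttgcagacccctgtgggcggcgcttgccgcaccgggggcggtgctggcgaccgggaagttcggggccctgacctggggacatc
Bhlha15: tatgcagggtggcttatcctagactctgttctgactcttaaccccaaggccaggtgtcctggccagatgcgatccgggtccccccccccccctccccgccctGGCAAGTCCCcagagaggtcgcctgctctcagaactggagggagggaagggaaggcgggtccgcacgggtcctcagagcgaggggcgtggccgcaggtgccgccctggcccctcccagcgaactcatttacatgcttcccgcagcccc
Plin4: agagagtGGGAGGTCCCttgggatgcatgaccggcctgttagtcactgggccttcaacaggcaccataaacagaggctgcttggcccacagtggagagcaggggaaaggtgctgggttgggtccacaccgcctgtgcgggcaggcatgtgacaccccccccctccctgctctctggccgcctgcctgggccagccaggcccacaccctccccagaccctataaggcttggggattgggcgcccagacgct
Hsd3b5: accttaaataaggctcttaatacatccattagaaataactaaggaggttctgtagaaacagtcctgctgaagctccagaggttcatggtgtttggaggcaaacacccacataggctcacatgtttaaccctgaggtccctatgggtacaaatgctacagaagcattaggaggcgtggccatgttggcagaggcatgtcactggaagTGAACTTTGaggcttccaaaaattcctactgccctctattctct
They lie at chr3:83841609-83841858 on the minus strand (Tlr2), chr5:144190036-144190285 on the plus strand (Bhlha15), chr17:56109783-56110032 on the minus strand (Plin4) and chr3:98645535-98645784 on the minus strand (Hsd3b5). Tlr2, a receptor for bacterial lipoproteins, had 2022, 1473 and 916 counts after IL-1β against 42, 24 and 22 (log2 5.81, SE 0.46). Bhlha15, a transcription factor of secretory cells, had 214, 252 and 343 against 1, 33 and 9 (log2 5.28, SE 0.74), and its saline values differed among themselves more than those of Tlr2. Plin4, a lipid droplet protein, had 1073, 1117 and 1280 against 106, 153 and 189 (log2 3.19, SE 0.18).

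Among all genes with a promoter sequence, the NF-kB motif was in 23 of 332 genes at least 4-fold higher (6.93%), in 13 of 293 at least 4-fold lower (4.44%) and in 542 of 12786 genes tested (4.24%). The AP-1 motif was in 13.9% of the genes at least 4-fold higher, 6.83% of those at least 4-fold lower and 5.78% of all. The C/EBP motif was in 15.4%, 8.53% and 8.99%, the STAT motif in 12.3%, 7.85% and 7.16%, and the TATA box in 16.9%, 9.56% and 8.53%. The HNF4 motif was rare in each set, at 1.81%, 1.71% and 1.35%. Over the 250 bases before the start alone, the NF-kB motif was in 5.12% of the genes at least 4-fold higher (exact 95% binomial interval 3.01 to 8.07) and 3.48% of all. Among the genes at least 2-fold higher the AP-1 motif was in 8.53%, the C/EBP motif in 10.6% and the TATA box in 11.6%, so those shares depended on the fold chosen. These are shares of letters in 1 window and carry no test; 2 motifs can lie in the same promoter, as C/EBP and AP-1 did in 102 promoters.

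All 32 listed positive acute-phase proteins passed the test and were higher, 29 of them at least 2-fold, with a median log2 fold change of 2.34 against -0.01 over all genes. The list is of genes known to rise in this response, and it was chosen with earlier results of these data known. It also holds Mt1, Mt2, Steap4, Slc39a14 and Cd14, so the full count largely follows from the choice. The fibrinogen chains Fga, Fgb and Fgg, which form clots, rose 4.51-fold, 4.25-fold and 4.50-fold. Fga had 226008, 214074 and 246841 counts in the IL-1β livers against 67990, 52780 and 55086. The hemoglobin-binding haptoglobin Hp and the heme-binding hemopexin Hpx each rose 5.08-fold. Crp, C-reactive protein, rose by 2.72 on the log2 scale and Apcs, the related serum amyloid P, by 3.64. Among the orosomucoids, plasma carriers of small molecules, Orm2 rose by 4.50 and Orm1 by 2.27, although in the saline livers the level per length of Orm1 (835 CPM per kb of exon, CPM being counts scaled to 1 common library total) was far above that of Orm2 (16.4).

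**Figure D2:**
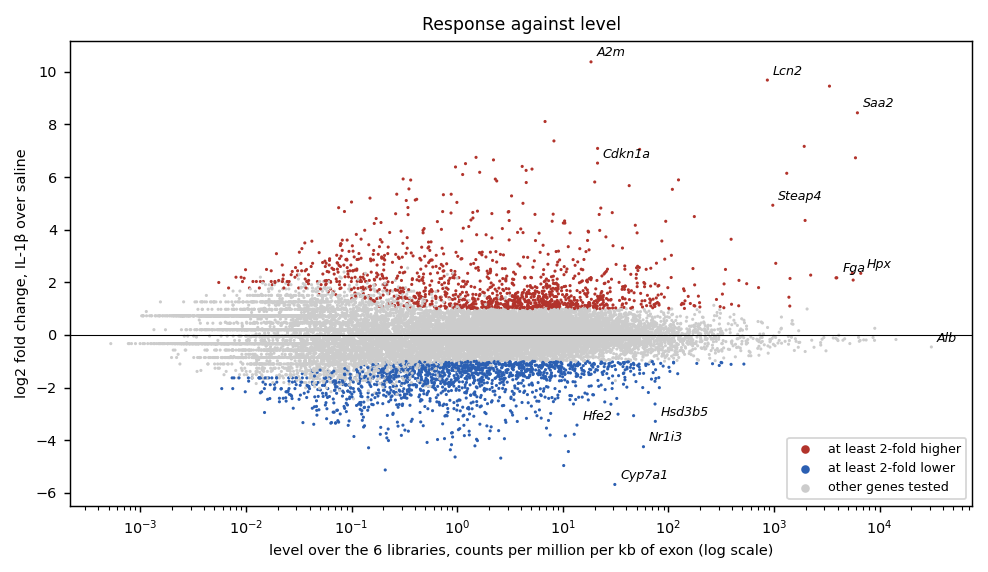
Log2 fold change of each gene against its level over the 6 libraries in CPM per kb of exon (log axis); red points are at least 2-fold higher, blue points at least 2-fold lower at an adjusted p of 0.05 or less, grey the rest. The abundant end holds rising genes (Saa2, Hpx, Fga) above a row of grey points that includes Alb, while the deepest falls (Cyp7a1, Nr1i3) are at middle levels.

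The 18 listed negative acute-phase and carrier proteins moved less, with 7 lower, 2 higher and 9 that did not pass. Igfals, the carrier subunit for insulin-like growth factors, fell by 1.5 on the log2 scale, and it was the single member past 2-fold. Alb, albumin, had 660230, 570133 and 626956 counts against 863619, 1007109 and 1062281, a fall of 1.37-fold (log2 -0.46, adjusted p = 0.00578). Rbp4, the vitamin A carrier, fell by 0.59. Ttr, transthyretin, did not pass at -0.12 (adjusted p = 0.411), and Ambp and Trf were higher. With library totals 12 members were lower in place of 7, so how far the carriers fell depended on the scaling, and 4 were lower without the first or second IL-1β mouse or the second or the third saline mouse.

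Complement and coagulation genes split. Of 29 complement genes 8 were higher and 9 lower, and the lower count was 5 without the first or second IL-1β mouse or the second saline mouse and 4 without the first saline mouse. C5ar1, a receptor for the fragment C5a, rose by 1.91 on the log2 scale. C3, the central component, rose by 0.99 and had 160608, 160630 and 182341 counts against 94837, 93065 and 103926, while the terminal components C8a (-0.43) and C8b (-0.47) and the membrane inhibitor Cd59a (-0.81) were lower. Of 29 coagulation and fibrinolysis genes 8 were higher and 11 lower. Beside the fibrinogens, Plaur, the receptor of urokinase, rose by 1.98 and Thbd, thrombomodulin, by 1.36. F3, tissue factor, fell by 2.16, and Serpind1, heparin cofactor II (-1.08), and Klkb1, prekallikrein (-0.98), were lower too.

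Of 32 iron and heme genes 13 were higher and 7 lower, but with library totals 11 were higher and 11 lower. Hamp, hepcidin, the hormone that blocks iron export, had 8369, 8377 and 10057 counts against 3272, 5648 and 5894, a rise of 1.10 on the log2 scale (adjusted p = 0.00219). Slc40a1, ferroportin, the iron exporter, fell by 1.95, and so did Tfrc, the transferrin receptor (-1.44), and Hfe2, hemojuvelin, a coreceptor that raises hepcidin (-3.42). Slc11a2 and Slc39a14 bring iron and zinc into cells. Slc11a2 rose by 2.10 Slc39a14 by 1.86 and Steap4, a metal reductase, by 4.93, from 3572, 2331 and 2511 counts to 73982, 79138 and 66490. The treatments did not overlap for any of these 7, which largely follows from naming genes that passed.

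The IL-1 pathway genes rose in 20 of 35 and fell in 2. The receptor Il1r1 had 11305, 9485 and 8840 counts against 1451, 738 and 802, a rise of 3.57 on the log2 scale (adjusted p = 4.05e-06). The decoy receptor Il1r2 had 29, 77 and 44 counts against 0 in each saline liver, and Irak3, which blocks the Irak kinases, rose by 4.69. Its relative Irak2, which carries the signal, fell by 0.83 and the receptor partner Il1rap by 0.50. Thus in these livers the antagonist Il1rn, the decoy and Irak3 were all higher, as was the receptor itself. Of the NF-kB subunits and their inhibitors, Nfkb2 rose by 3.14, the kinase Ikbke by 3.28, Rela by 1.30, Nfkbiz by 1.19 and Nfkbia by 0.56, while Nfkb1 (0.53, adjusted p = 0.0702) and Tnfaip3 (0.82, adjusted p = 0.0526) did not pass.

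In the IL-6 and STAT3 list 13 of 19 genes were higher and 2 lower. Socs3, a feedback inhibitor, had 1058, 491 and 411 counts against 191, 54 and 169 (log2 2.51, SE 0.47), the first IL-1β mouse being the highest. Osm, oncostatin M, of the same cytokine family, rose by 2.60. Stat3, the transcription factor of the pathway, rose by 1.83, and Cebpd, a C/EBP factor of the acute phase, by 1.95, while Cebpa, the factor of the resting hepatocyte, fell by 1.0. Il6 itself had at most 3 counts in any library, so that its own call rests on a handful of reads. Of 24 immediate early and AP-1 genes 12 were higher and 1, Fosb, lower (-2.16), a call that was lost with edgeR, DESeq2, the low-count filter and every fit without 1 mouse other than the second saline mouse. Egr2 rose by 3.61, Jun by 1.58, Junb by 2.21 and Btg2, an antiproliferative gene, by 3.17, whereas Fos (0.23, adjusted p = 0.653) and Egr1 (1.43, adjusted p = 0.0744) did not pass.

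Chemokines, which draw white cells, were higher for 13 of 31 genes and lower for 2, and 18 of the 31 had a mean under 20 counts. Cxcl9, which draws T cells, had 10807, 9327 and 6274 counts against 144, 157 and 201 (log2 5.89, SE 0.22). Ccl20 and Cxcl5 had 22 to 71 counts after IL-1β and at most 1 after saline. Ccl2, which draws monocytes, rose by 3.69. Cxcl1, which draws neutrophils, did not pass at 1.35 (adjusted p = 0.12). Cxcl12, made by resting stroma, fell by 1.38 and so did Cxcl11 (-2.79), an interferon-driven chemokine that shares its receptor with Cxcl9, which rose.

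Of 28 cytokines and growth factors 7 were higher (4 after the low-count filter) and 7 lower (4 without the first or the third IL-1β mouse or the first saline mouse). Il33, an alarm cytokine, rose by 3.06, Gdf15, a stress hormone, by 2.54 and Fgf21, a fasting hormone of the liver, by 2.18, and Tnfsf10, the death ligand TRAIL, fell by 2.11. Inhba, a subunit of activin, fell by 4.17. Il1b itself (0.36, adjusted p = 0.407) and Tnf (0.98, adjusted p = 0.399) did not pass. Interferon-related genes were higher in 17 of 41 and lower in 6: the GTPase Gbp6 rose by 5.67, with 5094, 4795 and 3478 counts against 144, 72 and 92, and Gbp10 by 4.58 and Gbp2 by 3.94. In contrast Irf1, which drives many interferon-response genes, fell by 1.41, from 577, 539 and 401 counts to 216, 142 and 143. Ifit1 (0.30, adjusted p = 0.356) and Irf7 (0.35, adjusted p = 0.174) did not pass.

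Among 27 pattern recognition genes 11 were higher and 3 lower. The coreceptor Cd14, Tlr2 and Lbp, the lipopolysaccharide carrier (log2 2.49), rose, while Tlr5, the flagellin receptor, fell by 1.80 and Tlr3, the receptor for double-stranded RNA, by 1.57. Tlr4, the signalling receptor for lipopolysaccharide, did not pass (-0.11, adjusted p = 0.835). Kinase phosphatases and RNA decay factors were higher in 8 of 21 and lower in 3 (5 without the first IL-1β mouse): Dusp8 rose by 3.88, Zc3h12a, an RNase that destroys cytokine messages, by 2.95, Dusp1 by 1.57 and Zfp36 by 1.29, while Dusp6 and Spry4, which answer to ERK, fell, at -1.5 and -1.96. Growth arrest genes were higher in 7 of 16 and lower in 3. Beside Cdkn1a, Ddit4, a brake on growth signalling, rose by 3.73, Gadd45g by 4.17 and Gadd45b by 2.43, whereas Gadd45a, the third of that family, fell by 1.51, Plk2, a p53 target, was lower (-1.64) and Mdm2, which holds p53 in check, rose by 0.51.

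Of 16 glucocorticoid receptor genes and targets 12 were higher and 4 lower. The lower count fell without single mice: it was 2 without the first IL-1β mouse, 1 without the second IL-1β or second saline mouse, and 0 without the third IL-1β or the third saline mouse. Sgk1, a kinase, had 853, 492 and 382 counts against 164, 372 and 188, a rise of 1.47, and Tat, tyrosine aminotransferase, was higher. In the other direction Tsc22d3, the target Gilz, fell by 0.78, the receptor Nr3c1 itself by 0.68 and Serpina6, the plasma carrier of glucocorticoids, by 0.55. Lcn2, Mt1, Mt2 and Dusp1 are in this list too and in others. Of 26 genes of oxidative defence 6 were higher (23.1%) and 3 lower (11.5%), against 16.7% and 16.1% of all genes. With library totals 6 were higher and 7 lower. Nos2, inducible nitric oxide synthase, had 47, 40 and 9 counts against 0 in each saline liver, Sod2 rose by 1.36 and Hmox1, heme oxygenase, by 1.49, and Prdx6, a peroxidase, fell by 0.75. Of 14 prostaglandin and leukotriene genes 3 were higher and 3 lower, at 21.4% each near the shares of all genes. The higher count was 1 with library totals, and without the second IL-1β mouse or the first or the third saline mouse. Ptges2 rose by 2.09 and Hpgd, which degrades prostaglandins, fell by 0.92.

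The machinery of secretion and of ribosome assembly moved almost entirely upward. Of 42 genes for folding, translocation and stress in the endoplasmic reticulum 35 were higher and none lower, with 15 at least 2-fold; 1 was lower with library totals, after the low-count filter and without the first saline mouse. Hspa5, the chaperone BiP, had 46112, 43309 and 48875 counts against 11074, 27115 and 11682 (log2 1.80, SE 0.28, adjusted p = 0.000851). Ddit3, the stress factor CHOP, rose by 2.60, Creld2 by 2.52, Herpud1 by 2.07 and Atf4 by 1.24, and Xbp1 by 0.55. The second saline mouse stood above its fellows in this group, with 1726 counts of Creld2 against 814 and 602 and 2686 of Manf against 938 and 1091, and still below each IL-1β liver. Of 29 ribosome assembly genes 26 were higher and none lower. Nop58, of the box C/D particles, had 1660, 1346 and 1252 counts against 228, 321 and 319 (log2 2.5), and Gar1 rose by 1.57 and Nolc1, Ddx21 and Nop2 by 1.24, 1.22 and 1.19.

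The structural proteins of the ribosome, the proteasome and the respiratory chain changed little and their counts depended on the scaling. Of 82 cytosolic ribosomal proteins 14 were higher (6 with library totals, and 6 without the first or the third IL-1β or the first or second saline mouse), at 17.1% near the 16.7% of all genes, and many have processed copies that share reads. Of 46 proteasome subunits 23 were higher and 1 lower (12 and 3 with library totals); the lower call was lost with DESeq2 and without the first or the third mouse of either group. Psmb10 and Psmb8 of the immunoproteasome rose by 1.13 and 0.65. Of 76 nuclear-encoded respiratory chain genes none was higher and 7 were lower, with a median of -0.13, and 38 were lower with library totals. The lower count was 3 without the first IL-1β mouse and 2 without either other IL-1β mouse or the second or the third saline mouse, and 2 genes were higher without the third saline mouse. In MHC and antigen presentation 8 of 18 were higher, led by the class I genes H2-D1 (1.23) and H2-K1 (0.78), and 3 were lower, the class II genes H2-Aa (-0.58) and H2-Eb1 (-0.66) and their regulator Ciita (-0.96). The lower count of this list was 6 with library totals, 1 with edgeR or DESeq2 or without the third saline mouse, 5 without the second IL-1β mouse and 0 without each other mouse.

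**Figure D3:**
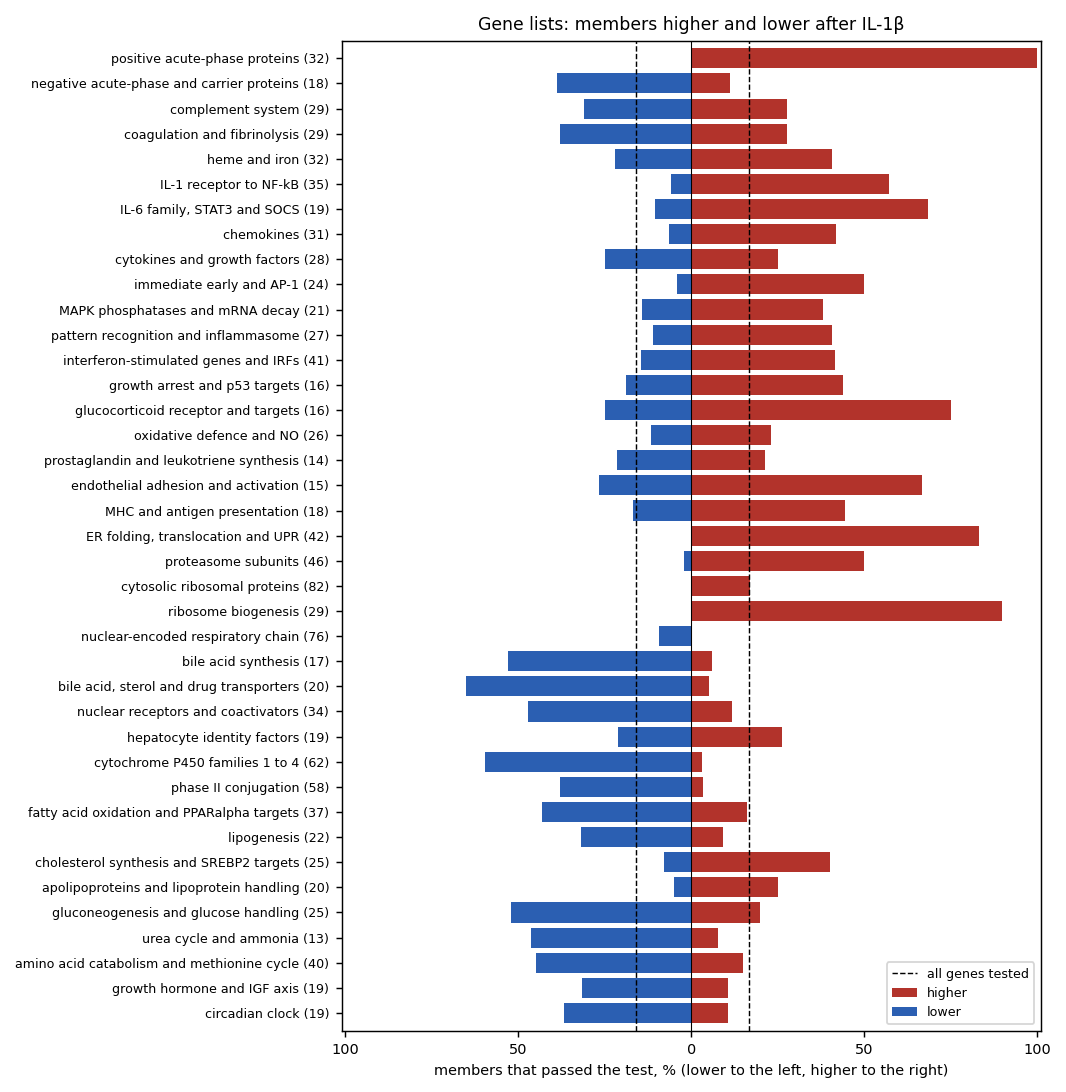
Percentage of each list's members that passed the test as higher (red, to the right) and lower (blue, to the left), with the number of members in brackets and the shares over all genes tested as dashed lines (16.7% and 16.1%). The acute-phase, endoplasmic reticulum and ribosome assembly lists lie almost wholly to the right, and bile acid transport, cytochrome P450 and glucose lists mainly to the left.

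Bile acid synthesis and transport fell. Of 17 synthesis genes 9 were lower and 1 higher, and of 20 transporters 13 were lower and 1 higher, with medians of -0.37 and -0.57. Beside Cyp7a1, Cyp8b1, the 12-alpha-hydroxylase, had 836, 731 and 643 counts against 3708, 1933 and 3235 (log2 -1.76, adjusted p = 0.000247), and Klb, the coreceptor for the gut hormone that restrains Cyp7a1, fell by 2.70. Nr0b2, the repressor SHP, fell by 1.12 and the reductase Akr1d1 was lower (-1.20). Baat, which joins bile acids to amino acids, was the single member that rose, by 0.44. Cyp27a1, of the other route of synthesis, did not pass, with 6010, 6160 and 6129 counts against 6261, 5866 and 6283 (log2 0.19, adjusted p = 0.0974), and neither did the bile acid receptor Nr1h4 (-0.35, adjusted p = 0.0569). Of the transporters, the uptake carriers Slc10a1 (-1.09) and Slco1a4 (-1.46) and the exporters Abcc2 (-1.10) and Abcg8 (-1.5) fell, and the bile salt export pump Abcb11 did not pass (-0.15, adjusted p = 0.426). Abca1, which exports cholesterol to high-density lipoprotein, was the single member that rose, by 1.68.

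Nuclear receptors and their coactivators were lower in 16 of 34, 11 of them at least 2-fold, and higher in 4. After Nr1i3, the falls included the retinoid receptors Rxrg (-2.74) and Rarb (-2.14) and Ppargc1b, a coactivator (-2.38). Not all receptors fell. The main partner Rxra (-0.12, adjusted p = 0.51), Ppara (0.02, adjusted p = 0.952) and the drug sensor Nr1i2 (-0.19, adjusted p = 0.3) did not pass. Hnf4a, the central factor of hepatocytes, was higher, with 15383, 15969 and 17100 counts against 9025, 9096 and 8496 (log2 1.06, adjusted p = 1.86e-05), and Vdr, the vitamin D receptor, had 14, 16 and 12 counts against 0. Of 19 hepatocyte identity factors 5 were higher (26.3%) and 4 lower (21.1%), against 16.7% and 16.1% of all genes. The higher count was 3 with library totals and without any mouse other than the first IL-1β mouse. Onecut2 fell by 1.33 and Foxa1 by 0.91, and Foxa2 (-0.05, adjusted p = 0.917) did not pass.

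Drug metabolism fell broadly but mostly by less than 2-fold. Of 62 cytochromes P450 of families 1 to 4, 37 were lower, 9 of them at least 2-fold, and 2 were higher (4 without the third IL-1β mouse). Cyp2u1 fell by 3.32, Cyp2g1 by 1.98 and Cyp2a5 by 1.05. The abundant Cyp2e1 (log2 -0.60), Cyp3a11 (-0.47) and Cyp1a2 (-0.39) fell less, and Cyp2c29 did not pass (-0.29, adjusted p = 0.114). Cyp2b10, the classical target of Nr1i3, went the other way, with 633, 961 and 1368 counts against 123, 259 and 372 (log2 2.24, SE 0.37, adjusted p = 0.00133). Its treatments did not overlap, while its regulator was 19.0-fold lower in the same livers. Of 58 conjugation enzymes 22 were lower and 2 higher (1 higher with library totals, edgeR, DESeq2, the low-count filter or without the second IL-1β mouse, and 4 without the third saline mouse). Sult1e1, which sulfates estrogens, rose by 1.62 and Nnmt, nicotinamide N-methyltransferase, by 1.47, while Gsto2 (-1.63), Ugt1a7c (-1.32) and Gstt2 (-1.20) fell. Members of these families share sequence, and reads of close copies may be lost.

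**Figure D4:**
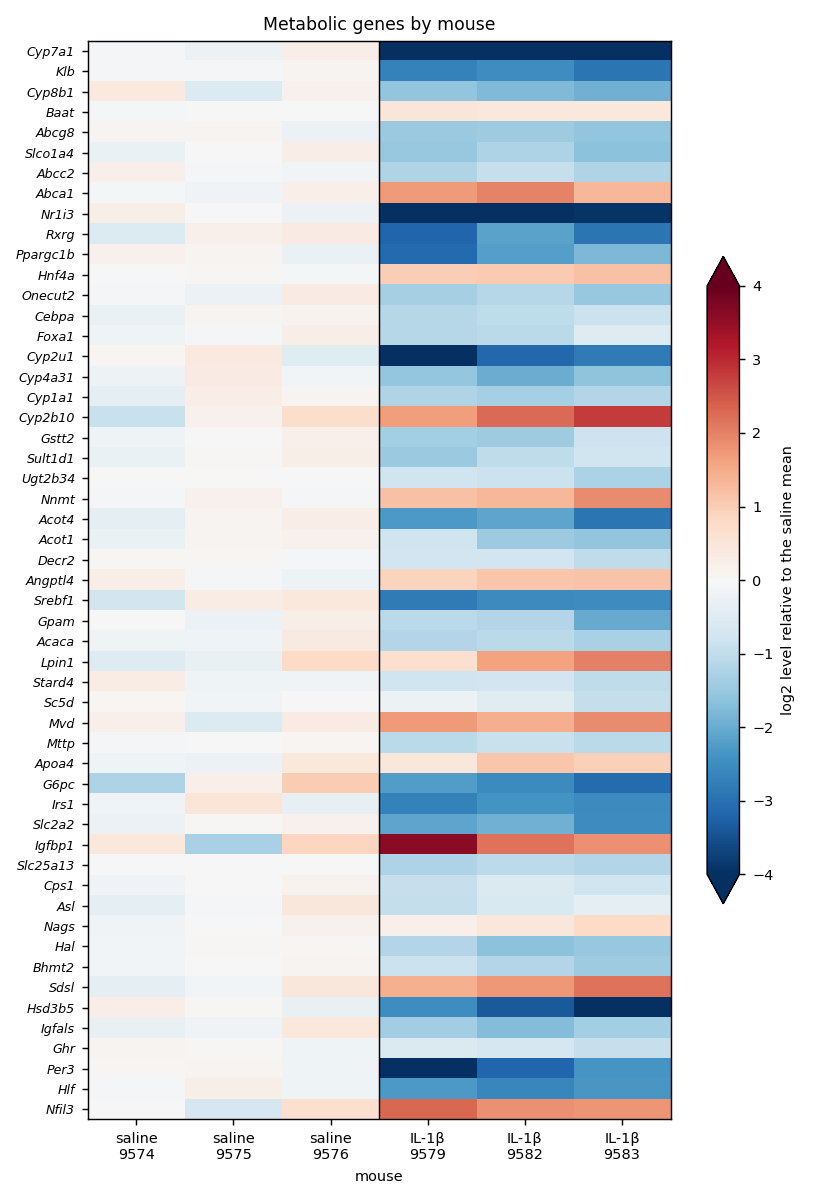
Level of 53 metabolic and regulatory genes in each mouse, as log2 relative to the mean of the saline livers (colour, cut at 4 in either direction); the 3 left columns are saline and the 3 right columns IL-1β. In 39 genes every IL-1β liver is below every saline liver, in 12 every one is above, and Lpin1 and Asl overlap. The genes are the 3 largest falls and the largest rise that passed in each metabolic list. They were taken among genes averaging 20 counts or more and reported here. Only genes that passed were drawn, so the separation largely follows from the choice and is no result about metabolic genes.

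Glucose handling was lower in 13 of 25 genes and higher in 5 (3 with library totals and without the second IL-1β or second saline mouse). G6pc, the last step of glucose output, had 634, 509 and 347 counts against 1445, 3960 and 6964 (log2 -2.62, SE 0.49), with its lowest saline value in the first mouse. Slc2a2, the glucose transporter of hepatocytes, had 752, 870 and 568 counts against 3226, 3871 and 4257 (log2 -2.19, SE 0.15), and Gys2, glycogen synthase, fell by 1.32. Irs1, which carries the insulin signal, fell by 2.55. Pck1, the first committed step of glucose synthesis, did not pass (0.04, adjusted p = 0.886), and nor did Fbp1 (0.18, adjusted p = 0.296). Igfbp1, a secreted protein known to be raised by low insulin and by stress, had 3877, 1465 and 1123 counts against 492, 150 and 670, a rise of 2.54.

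Lipid genes divided by route. Fatty acid oxidation genes were lower in 16 of 37 and higher in 6 (3 with library totals and without the first IL-1β mouse or the first or second saline mouse, and 2 without the second IL-1β mouse). Acot4, a thioesterase, had 81, 93 and 52 counts against 353, 495 and 551 (log2 -2.44, adjusted p = 6.93e-05), and its relative Acot1 fell by 1.28. Cpt1a, the entry step of oxidation, did not pass (-0.04, adjusted p = 0.845). Of 22 lipogenesis genes 7 were lower and 2 higher (1 without the second IL-1β mouse or the first or second saline mouse): Srebf1, the driver of fatty acid synthesis, had 420, 515 and 509 counts against 2033, 4233 and 4624 (log2 -2.63), Gpam fell by 1.42 and Acaca by 1.19, while Fasn did not pass (-0.74, adjusted p = 0.175), its saline counts running from 3608 to 14575. Cholesterol synthesis went upward instead, with 10 of 25 higher and 2 lower (7 and 4 with library totals). The lower count was also 4 after the low-count filter, and 1 without the second IL-1β mouse or the second or the third saline mouse. Mvd, which makes an early isoprene unit, rose by 1.68 and Sqle, squalene epoxidase, by 1.55. The second saline mouse had the lowest Sqle, at 384 counts against 1221 and 939. Of 20 apolipoprotein and lipoprotein genes 5 were higher (2 with library totals, and without the second or the third IL-1β or the first or second saline mouse) and 1 lower (6 with library totals, and 3 without the first saline mouse); the latter was Mttp, which loads lipid onto apolipoprotein B, at -1.01.

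Nitrogen metabolism was lower in 6 of 13 urea cycle genes and higher in 1 (a call lost with library totals and without each mouse other than the first IL-1β mouse, without which 2 were higher), with Cps1, the entry step, at 30419, 39421 and 32935 counts against 60688, 66574 and 73672 (log2 -0.77), and Slc25a13 at -1.16. Amino acid breakdown fell in 18 of 40 genes and rose in 6. Hal and Bhmt2, which handle histidine and homocysteine, fell, at -1.44 and -1.16, while Sdsl (log2 1.77), Sds (1.75), Aass (1.30) and Tat rose. Of 19 genes of growth hormone and IGF signalling 6 were lower and 2 higher. Hsd3b5, a steroid dehydrogenase typical of male liver, had 428, 236 and 149 counts against 3329, 2838 and 2240 (log2 -3.28), Ghr, the growth hormone receptor, fell by 0.73, Socs2 rose by 1.93 and Igf1 did not pass (-0.28, adjusted p = 0.144).

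The circadian clock genes were lower in 7 of 19 and higher in 2 (4 with DESeq2 and without the third IL-1β mouse). Per3 had 30, 61 and 106 counts against 647, 686 and 570 (log2 -3.24), Per2 104, 140 and 264 against 606, 1000 and 822 (log2 -2.14), and Dbp 152, 179 and 236 against 981, 949 and 430 (log2 -1.78). Hlf, Dbp's relative, fell by 2.41. Nfil3, which opposes Dbp at shared sites, rose by 1.97 and Per1 by 1.17. The core genes Clock (0.53, adjusted p = 0.0831) and Nr1d1 (0.21, adjusted p = 0.675) did not pass. The clock time of sampling is not given in the sources used here, and all livers were taken at the same interval from injection.

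Other cell types moved with the treatment, and in whole liver fewer cells of a type and less RNA per cell cannot be told apart. The 10 neutrophil markers summed to 46.9 to 93.0 CPM after IL-1β and 3.75 to 6.56 after saline, with 8 higher. S100a8 had 145, 312 and 186 counts against 13, 6 and 6, and Ly6g, the defining marker, had 0, 2 and 2 against 0 in each. The 6 monocyte markers summed to 9.11 to 14.2 against 3.98 to 5.53, with 3 higher. The 8 Kupffer cell markers summed to 66.6 to 95.8 against 137 to 230, with 5 lower and 1 higher, and the defining markers Clec4f (-1.0) and Vsig4 (-1.26) fell. Sinusoidal endothelium was at 135 to 168 against 239 to 268, with 6 of 8 lower and 1, Lyve1, higher: Kdr (-2.22), Clec4g (-1.59) and Stab2 (-0.78) fell. Stellate cell markers were at 163 to 217 against 288 to 351, with 4 of 8 lower. The part of these shifts in the changes of cytokine, adhesion and pattern recognition genes was not tested.

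Counts of lymphocyte markers were near the floor. The 7 T cell markers summed to 1.37 to 2.02 CPM against 3.50 to 3.83, with 1 lower, the 5 B cell markers to 0.887 to 1.30 against 3.03 to 5.61, with 3 lower, and the 5 NK cell markers to 0.81 to 1.85 against 0.7 to 0.869, with none called. Cholangiocyte markers were at 43.1 to 51.6 against 46.2 to 64.8, with 3 of 6 higher, and erythroid and platelet markers at 129 to 177 against 173 to 183, with 1 of 6 higher. The 8 hepatocyte markers, Alb and Ttr among them, were at 79500 to 87100 against 93000 to 111000, with 2 higher and 2 lower. The labelled tissue was plain in every library. All marker sums are on library totals, which set the IL-1β livers lower against saline than TMM scaling does. Small gaps between the groups, that of the hepatocyte markers among them, therefore depend on the scaling. In the endothelial adhesion list 10 of 15 genes were higher and 4 lower (2 without the first IL-1β mouse). Icam1, an anchor for white cells, had 715, 631 and 566 counts against 171, 159 and 162 (log2 2.15), and Sele and Selp, which start rolling, rose by 2.96 and 2.15, while Tek, the receptor of angiopoietins, fell by 2.04 and its antagonist ligand Angpt2 rose by 2.33.

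The share of abundant genes that rose depended on how the class was set. With genes classed by their mean level over all libraries, in CPM per kb of exon, 16 of the 67 genes over 1000 were at least 2-fold higher and none at least 2-fold lower. The 16 were Saa1, Saa2, Saa3, Fga, Fgb, Fgg, Hp, Hpx, Orm1, Serpina3n, Itih4, Crp, Hamp, Mt1, Mt2 and Tat. Among the 434 genes from 100 to 1000, 8.29% were at least 2-fold higher and 2.76% at least 2-fold lower, and from 10 to 100 these shares were 8.26% and 5.26%. From 1 to 10 they were 7.84% and 8.32%, and under 1 they were 4.93% and 8.41%. With classes of CPM without length, the shares of at least 2-fold lower genes were 0.8%, 6.69%, 5.84%, 14.4% and 5.37% from the top class down. A gene that rises lifts its own mean, and with classes set by the saline level alone, chosen after seeing the data, 5 of 64 genes over 1000 (7.81%) were at least 2-fold higher, near the 6.64% of all genes, and none was at least 2-fold lower. In that class 9 genes passed as higher and 15 as lower, and the median log2 fold change was -0.19 (-0.11 with the classes over all libraries). The shares of at least 2-fold lower genes were then 5.68%, 7.43%, 9.03% and 6.93% from the next class downward. The median SE of a log2 fold change was 0.10 in the top class and 0.62 in the lowest, so a call under 1 needs a larger change.

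**Figure D5:**
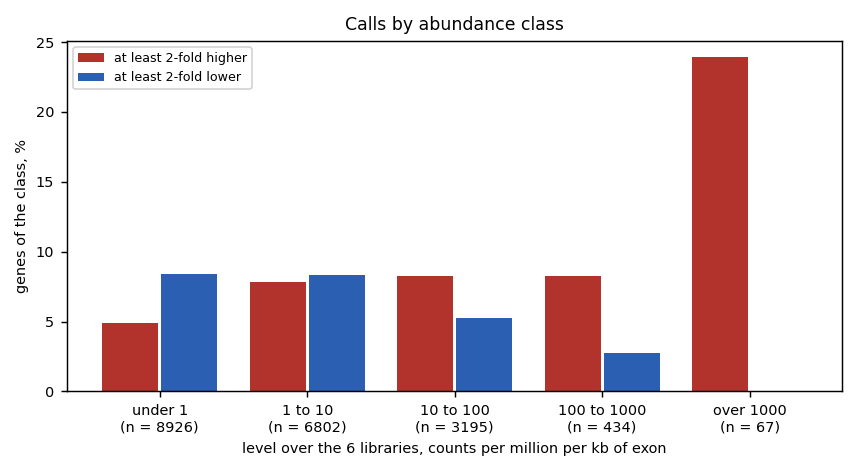
Percentage of genes at least 2-fold higher (red) and at least 2-fold lower (blue) in 5 classes of level over the 6 libraries, in CPM per kb of exon, with the number of genes per class. The red bar is tallest in the top class, at 23.9%, where no gene is blue, and the blue bar is taller than the red in the lowest class.

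The gain was held by fewer genes than the loss. In CPM of the library totals, which make gain and loss equal by construction, the genes that gained did so by 214352 in all. With TMM-scaled totals the gain was 259805 and the loss 150296. The 10 genes with the largest gain held 41.6% of it (37.5% with TMM-scaled totals), and the 100 largest held 72.2%, against 24.0% and 51.1% for the losses, which were spread over more genes. Fga gained 13881 CPM, Hpx 12532, Fgb 10764, Hp 9507 and Fgg 9151, followed by Saa2, Serpina3n, Saa1, C3 and Steap4. These 10 made up 11.2%, 11% and 12.4% of the IL-1β libraries and 2.80%, 2.39% and 2.62% of the saline libraries. Alb alone fell by 26568 CPM, moving from 7.65% ± 0.743 (SD, n = 3) to 4.99% ± 0.352, and mt-Co1, Sepp1, Cyp2e1, Serpina1e, Cps1, Cyp3a11, Mup7 and Mup3 were among the next losses. Of these, mt-Co1 (adjusted p = 0.138), Serpina1e (adjusted p = 0.299), Mup7 (adjusted p = 0.689) and Mup3 (adjusted p = 0.122) did not pass with TMM scaling. Mup7 counts ran from 62772 to 172212 in the saline livers alone.

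The ranking by level per length also moved. Of the 50 genes with the highest level in the saline livers, 37 remained among the 50 highest after IL-1β. The 13 that entered were Saa2, from rank 1178 to rank 3, Saa1, from 396 to 4, Saa3, from 3577 to 11, Lcn2, from 8393 to 44, Mt1, Mt2, Serpina3n, Orm1, Itih4, Tat, Steap4, Hamp and Crp. The 13 that left went no lower than rank 70 and included Rbp4, B2m, Car3, Serpina1a, Ces1c and 5 major urinary protein genes or copies, whose near-identical sequences make single counts uncertain. A gene can leave because others entered above it. B2m (-0.14, adjusted p = 0.203), Car3 (-0.06, adjusted p = 0.827) and Ces1c (-0.2, adjusted p = 0.101) did not pass, while Rbp4 and Serpina1a passed as lower.

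Genes that went from at most 3 counts in every saline library to at least 30 in every IL-1β library numbered 14, and 1 went the other way. In order of level after IL-1β the 14 were A2m, Reg3b, Serpina3i, Ankrd2, Timp1, Retnlg, Chi3l1, Slc10a6, Cxcr2, Cdh3, 9530077C05Rik, Mmp8, Rab44 and Tm4sf20. Reg3b had 164, 70 and 150 counts against 0 in each, at least 43.9-fold higher against a floor of 3 counts per library, and Timp1, an inhibitor of matrix proteases, had 103, 113 and 77, at least 33.6-fold. Retnlg and Cxcr2, at least 22.9-fold and 16.0-fold higher, are on the neutrophil marker list, and Mmp8 is a collagenase of neutrophils. The gene that went the other way was Gm11437, from 35, 51 and 49 counts to 2, 1 and 2, at least 14.5-fold lower.

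Some changed genes lay near each other. Runs of 3 or more genes at least 2-fold changed in 1 direction, each start within 100 kb of the next, held 198 of the genes that rose (15.4%) in 55 runs, and 115 of those that fell (7.68%) in 34 runs; no test was made. The longest held Serpina5, Serpina3c, Serpina3e-ps, Serpina3f, Serpina3g, Serpina3h and Serpina3i (mm9, chromosome 12, bases 105339323 to 105507582), with a median log2 fold change of 2.35. Saa3, Saa4, Saa1, Saa2 and Ldha formed a run on chromosome 7 (bases 53967368 to 54110997) with a median of 6.73. Further runs held the fibrinogens with Plrg1, the orosomucoids, the Reg3 lectins (median 6.18), S100a6 with S100a8 and S100a9 (4.65), and the families of Gbp and Slfn genes. Among falling runs were Hsd3b5, Hsd3b2, Hsd3b3 and Hsd3b6 with Gm10681 on chromosome 3 (median -3.28) and the flavin monooxygenases Fmo1 to Fmo4 on chromosome 1 (median -3.08). Many runs held no gene family, such as Rad17, Taf9 and Cdk7 among the rising ones. The longest falling run was another, with Spc24, Kank2, Dock6, Rab3d, Epor and Ccdc151 (median -1.64). Copies of a family can share reads, so members of a run are not independent of each other.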

How the data were processed

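Liver RNA of 6 mice was made into poly(A) TruSeq Stranded libraries, with no molecular identifiers. The SEs and p-values rest on the spread between mice. The exact binomial interval is over genes, and the floors are counts of reads. Per the labels and the study's methods, the authors aligned reads to mm9 with GSNAP, resampled them to equal depth with PORT and counted sense-strand reads that follow annotated junctions. The deposited values are counts, taken to hold uniquely mapped reads; no per-sample column of the table was left out. The tables of the other 2 kits were not used here.

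From these counts, limma-voom (limma 3.58.1, R 4.3.3) with TMM factors (edgeR 4.0.16) was fitted to all 19424 genes, with Benjamini-Hochberg adjustment. The study's methods name limma-voom but no scaling factor. The alternatives were library totals, edgeR's quasi-likelihood test, DESeq2 1.42.0, a low-count filter (10 counts or more in any 3 of the libraries), and leaving out each library. All 19424 genes were matched by ID to the GENCODE annotation of the same build for coordinates and exon length. Classes by saline level were added after seeing the data. Replicate libraries differed by more than counting noise (chi-square per degree of freedom 9.97 to 31.7), so none was a repeat deposit. The fits were tested on simulated data. Named genes were the 15 largest rises and 15 largest falls (adjusted p of 0.01 or less, no overlap, 100 counts or more on average in the higher group), the 10 largest gains and losses, members of 39 gene lists with the largest changes that passed, and their defining regulators. Promoters to be printed were to be the largest named rises with an NF-kB motif and the largest named fall with an HNF4 motif. Summaries used Python 3.11.15 with pandas 2.3.3, numpy 2.4.6, scipy 1.17.1 and matplotlib 3.10.9. Some genes that the rule would name are not reported here. The genes, lists and comparisons were chosen with earlier results of these data known.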

Additional observations from a re-analysis of the deposited data

How the results depend on the processing

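The 4 counts of changed genes stayed within 1.5 times of those reported under every alternative. Genes higher and lower numbered 2382 and 4232 with library totals, 3198 and 3086 with edgeR, 2973 and 2776 with DESeq2, and 3247 and 3148 of 12755 genes after the low-count filter. Without 1 library they ran from 2648 to 3057 and from 2284 to 2564, and the counts past 2-fold from 1162 to 1342 and from 1184 to 1343. Genes switched on numbered 35 and 2, and switched off 24 and 0, with minimums of 10 and 100 counts in place of 30. Runs of rising neighbours numbered 28 and 85, and of falling neighbours 20 and 74, with gaps of 50 and 200 kb. The top 10 genes held 37.5% of the gain with TMM-scaled totals, and 39.9% to 42.9% without 1 library. No gene named by size of change or gain reversed; mt-Co1 and Mup3 passed with library totals. No paired analysis was possible because the IL-1β and saline mice are different animals with no number in common. Calls under 1 CPM per kb rest on few reads, and 3 mice per group limit what small changes can be seen.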

Other observations

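Noncoding gene types differed in their counts. Of 672 lincRNA genes 29 were higher and 88 lower, and of 657 processed transcripts 35 were higher and 63 lower, while of 1996 pseudogenes 144 were higher and 42 lower, which can hold reads of their parent genes. Of 15853 protein-coding genes 3028 were higher and 2932 lower. Over all genes tested 16.7% were higher and 16.1% lower. The lincRNA genes, processed transcripts and pseudogenes each had smaller shares of these calls in both directions. Past 2-fold this did not hold for falls. There 78 lincRNA genes were lower and 21 higher, the lower share being above the 7.71% of all genes. For processed transcripts 52 were lower, near that share, and 29 higher, and for pseudogenes 27 were lower and 71 higher. These counts carry no test of the difference between gene types, and noncoding genes are scarcer than coding ones.

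Genes at least 2-fold lower were longer than those at least 2-fold higher. Where genes averaged 20 counts or more, the median span on the chromosome was 26.8 kb for the 985 genes at least 2-fold lower, 16.2 kb for the 914 at least 2-fold higher and 21.5 kb for all 11529, and the median exon lengths were 3910, 3500 and 3560 bases. This is a description across genes.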
